A study of Mus musculus with 10 samples.

Results

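Glucose uptake, glycolysis and the routes that pyruvate takes afterwards were described through 37 genes, 3 glucose transporters, 14 glycolytic enzymes, 4 enzymes that make and break fructose 2,6-bisphosphate (the PFKFB enzymes), 4 genes of lactate, 7 of the pyruvate dehydrogenase step and 5 of the pentose phosphate pathway. The genes were listed by function and no measured value is part of the rule, but the list was drawn up with earlier results of these data known. All 37 were found among the 15078 genes of the table, and all 37 passed the filter for testing (a mean of at least 10 over the 10 libraries), which kept 13644 genes.

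RNA was sequenced from CD51+CD200+ stem and stromal cells of the mouse skeleton. The 10 libraries comprised 4 of graft BM-MSCs, 3 of P-SSCs and 3 of BM-MSCs. Graft BM-MSCs were marrow mesenchymal stem cells carrying the Tomato label, sorted 5 months after a femur of a Postn-CreER;tdTomato mouse had been placed under the skin of a wild-type recipient. The labels give their genotype as transgenic (POSTN-CRE) and their treatment as tamoxifen induction, which per the methods was 1 mg given 2 times a day for 10 days to the host. The recombinase in the graft was driven by Postn, so the Tomato gate took cells whose lineage had used that promoter, and other marrow stroma of the graft was not sampled. Postn had 21259, 24828 and 16558 normalized reads (read counts scaled per library) in the 3 P-SSC libraries and 5041, 4579 and 3757 in the 3 BM-MSC libraries. It was at 0 in 3 of 4 graft libraries. The P-SSC and BM-MSC values did not overlap, but the difference was not called (adjusted p = 0.687 with limma). That test takes 1 estimate of the spread from all 10 libraries, the graft libraries included. By the paper's account, Postn is higher in P-SSCs than in BM-MSCs. Whether labelled cells came from periosteum or from marrow that used Postn was not tested. BM-MSCs and P-SSCs (periosteal skeletal stem cells) came from wild-type, untreated mice at steady state. Mice of the study were 42 to 84 days old unless stated otherwise (the methods give weeks), and graft cells were in addition 5 months past transplantation, so that age, tamoxifen, genotype and transplantation cannot be told apart between graft and steady-state cells. RNA of 2 mice was joined in BM-MSC 2+4 and in P-SSC 2+5. The 6 steady-state libraries were a new analysis of libraries deposited earlier, whereas the 4 graft libraries were not.

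Cells take up glucose through facilitative transporters of the Slc2a family and trap it by phosphorylation with a hexokinase. Glycolysis then splits the sugar into pyruvate, with phosphofructokinase as the main point of control, and pyruvate is either reduced to lactate and exported or oxidised in the mitochondrion by the pyruvate dehydrogenase complex, which the kinases Pdk1 to Pdk4 hold inactive. The pentose phosphate pathway branches off at glucose 6-phosphate and yields NADPH and ribose. Several steps have tissue-specific isozymes, and stem cells of bone and marrow are widely described as glycolytic, which makes the choice of isozyme in stroma of marrow and periosteum a question of its own.

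Values are read counts of a gene scaled by 1 size factor per library, called normalized reads here, and are given in the order graft BM-MSC 1, 2, 3 and 4, BM-MSC 1, 2+4 and 3, and P-SSC 1, 2+5 and 4. Libraries held 15415421 to 25223295 reads, and 9308 to 11674 genes had a read in graft BM-MSCs against 12217 to 13341 at steady state. A value of 0 allows up to 3 reads, which is 0.119 to 0.195 ppm of a library's reads. Genes above 60% GC stood higher than genes of 45 to 55% GC, by 0.235 to 0.949 on the log2 scale, in the 4 graft libraries and by 0.933 in P-SSC 4, and lower, by -1.04 to -0.473, in the other 5 libraries. Graft BM-MSCs and BM-MSCs therefore share no kind of library, and the difference between them cannot be told apart from this GC difference. Values are therefore also given with GC correction and from a fit with a term for these 2 kinds of library. In GC correction, each library's trend with GC content was removed together with its mean level. For graft BM-MSCs, the median of all genes tested thereby moved from -0.47 to 0.29 against P-SSCs and from -0.53 to 0.23 against BM-MSCs. A call lost with GC correction therefore cannot be assigned to GC content alone. With the term for library kind, the change between graft BM-MSCs and P-SSCs is the difference from P-SSC 4 alone, and so rests on 1 P-SSC library. The change of graft BM-MSCs against BM-MSCs is then reached through the P-SSC libraries of both kinds. Between P-SSCs and BM-MSCs, the term gives the same change as leaving out P-SSC 4. The marrow markers Cxcl12 and Lepr were high in both marrow groups (Cxcl12 560618 to 736781 in graft BM-MSCs, 743661 to 995477 in BM-MSCs and 3503 to 7751 in P-SSCs), and Cd200 and Itgav (CD51) had reads in all 10 libraries. Red cell genes (9 in the table) summed to 1566 to 27755 normalized reads in graft BM-MSCs, 59297 to 213622 in BM-MSCs and 208 to 1407 in P-SSCs. Neutrophil genes (7) summed to 5624 to 106513, 28950 to 85988 and 12.6 to 110.1, although the study's stromal gate is CD45-Ter119-CD31-, and Mpo was at 0 in 9 of the 10 libraries. Muscle genes (7) summed to 578 to 1464, 602 to 797 and 726 to 2089, with Acta1 and Ckm at 0 in all 7 marrow libraries and at 206 to 893 and 1.94 to 84.1 in P-SSCs.

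**Figure D1:**
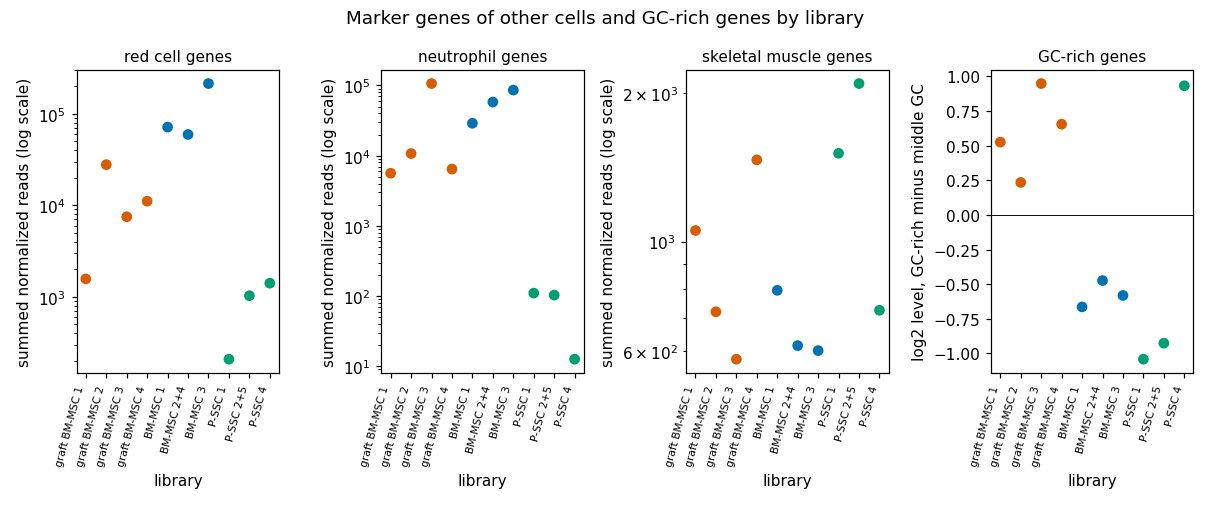
Each point is 1 library (orange, graft BM-MSC; blue, BM-MSC; green, P-SSC). The first 3 panels give the summed normalized reads of 9 red cell, 7 neutrophil and 7 muscle genes on log axes, and the last gives the log2 level of genes above 60% GC minus that of genes of 45 to 55% GC. Blood genes separate the P-SSC libraries from the marrow libraries, graft BM-MSC 3 has the highest neutrophil sum, and P-SSC 4 sits with the graft libraries in the GC panel.

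The comparisons ask how the Tomato+ stroma of a regenerated graft marrow relates, in its glucose metabolism genes, to resident marrow stroma and to periosteal cells. Between graft BM-MSCs and P-SSCs, 16 of the 37 genes changed (adjusted p under 0.05 with limma, tested over all 13644 genes), 4 higher and 12 lower in graft BM-MSCs. Of all genes tested, 18.1% were called in that comparison, 6.08% higher and 12.0% lower. Between graft BM-MSCs and BM-MSCs 8 members changed, 1 higher and 7 lower, against 7.67% of all genes called, 2.61% higher and 5.06% lower. Between P-SSCs and BM-MSCs 4 members changed, 1 higher and 3 lower in P-SSCs, against 9.15% of all genes, 4.57% higher and 4.58% lower. In all, 17 members were called in at least 1 comparison and 20 in none. The values of the 2 groups did not overlap for 18, 15 and 13 members in the 3 comparisons, in that order, where 26.6%, 25.0% and 30.9% of all genes tested did not overlap. The 2 comparisons with graft BM-MSCs share the graft libraries, and so their counts are not independent of each other.

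The share of all reads taken by the 37 genes together was 0.571% ± 0.0495 (SD, n = 4) for graft BM-MSCs, 0.725% ± 0.128 (SD, n = 3) for P-SSCs, and 0.742% ± 0.0243 (SD, n = 3) for BM-MSCs. The 14 glycolytic enzymes made up most of this, with 0.322% ± 0.0489 (SD, n = 4) for graft BM-MSCs, 0.524% ± 0.11 (SD, n = 3) for P-SSCs, and 0.465% ± 0.0257 (SD, n = 3) for BM-MSCs. For the enzymes, the highest graft library (0.378%) stayed below the lowest steady-state library (0.417%).

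**Figure D2:**
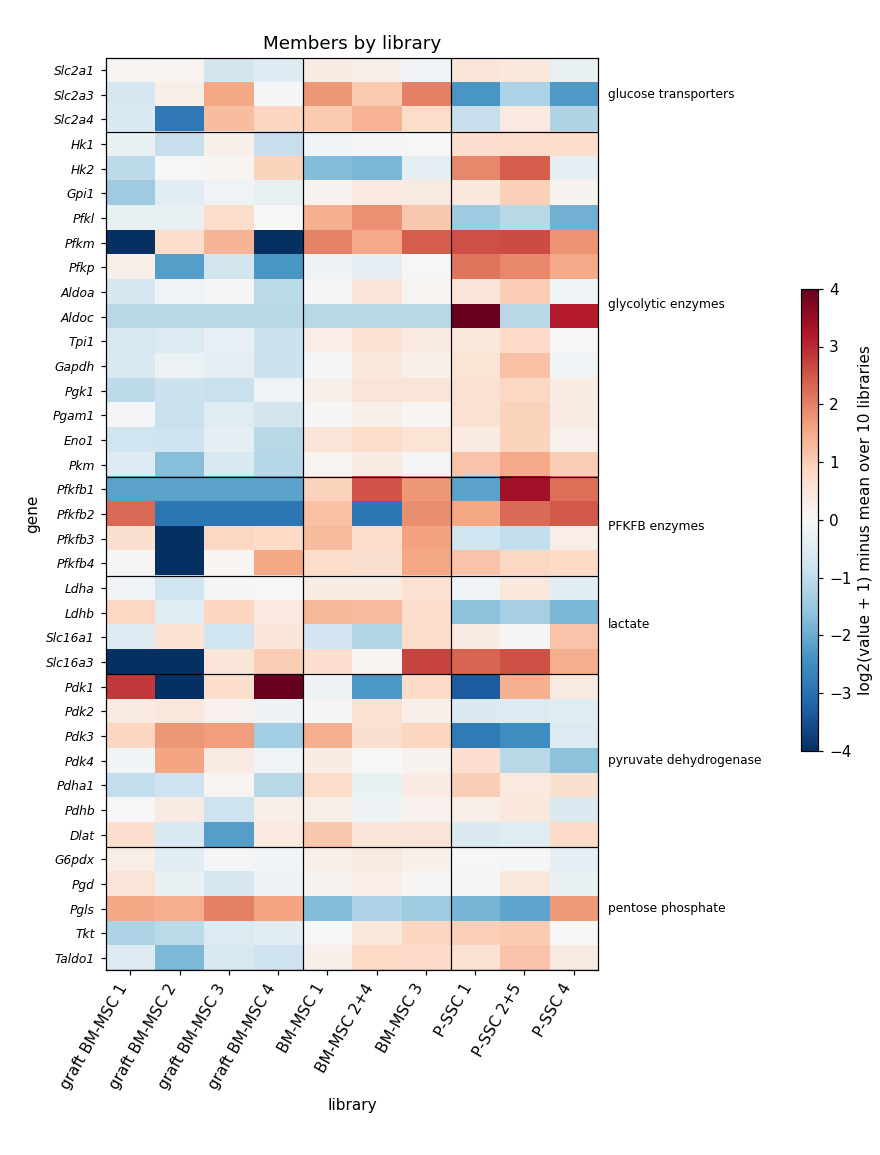
Rows are the 37 genes in order of pathway step and columns the 10 libraries. Colour gives log2(value + 1) minus the gene's mean over the 10 libraries, with red high and blue low and the scale ending at -4 and 4. The rows from Tpi1 to Pkm are mostly blue in graft BM-MSCs and mostly red in both steady-state groups, whereas Pfkl, Ldhb and Slc2a3 are blue in P-SSCs and Pfkp is red there.

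Of the 3 glucose transporters, the neuronal and blood cell form Slc2a3 (GLUT3) differed between groups and the widespread form Slc2a1 (GLUT1) did not pass the test in any comparison. Slc2a3 (ENSMUSG00000003153, chr6:122727809-122801640, GRCm38) had 210.2, 394, 986 and 317 normalized reads in graft BM-MSCs, 1116, 684 and 1358 in BM-MSCs and 65.4, 139 and 68.8 in P-SSCs. The P-SSC values lay below those of all marrow libraries, and the 2 marrow groups overlapped. It was lower in P-SSCs than in BM-MSCs (log2 change -3.55 ± 0.64 (SE), adjusted p = 0.00462) and higher in graft BM-MSCs than in P-SSCs (log2 change 2.22 ± 0.60 (SE), adjusted p = 0.0272). The second call was lost without BM-MSC 1, P-SSC 1 or P-SSC 4 (adjusted p 0.0501 to 0.1), and with the 2 groups alone and the term for library kind (log2 change 2.53, adjusted p = 0.142). Slc2a3 is also expressed by neutrophils, and the libraries highest in Slc2a3 within each marrow group, graft BM-MSC 3 and BM-MSC 3, had the highest summed neutrophil genes of their groups, 106513 and 85988. The part of blood cells in the Slc2a3 values was not tested. In these sorted bulk samples, fewer cells of a type and less RNA per cell cannot be told apart. Slc2a1 had 847, 877, 490.4 and 571 in graft BM-MSCs, 1015, 954 and 738 in BM-MSCs and 1133, 1084 and 652 in P-SSCs, with ranges that overlapped in every pair of groups. The log2 change between P-SSCs and BM-MSCs was 0.06, with a 95% interval of -0.77 to 0.88. The insulin-responsive transporter Slc2a4 ranged over 38.8 to 679.8, 485 to 765 and 125 to 381 in the 3 groups, and was not called.

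At the entry to the pathway, Hk1, the housekeeping hexokinase bound to mitochondria, was lower in graft BM-MSCs than in P-SSCs (log2 change -1.17 ± 0.30 (SE), adjusted p = 0.0225). Its values were 1395, 885, 1967 and 889 in graft BM-MSCs, 1573, 1634 and 1729 in BM-MSCs and 2695, 2762 and 2736 in P-SSCs, and the 3 P-SSC libraries lay close together and above all others. The call was lost without P-SSC 1 or P-SSC 2+5 (adjusted p 0.0656 to 0.0742). The Hk1 call was also lost with quantile normalization, the 2 groups alone, edgeR, GC correction (log2 change -0.20, adjusted p = 0.753) and the term for library kind (log2 change -1.17, adjusted p = 0.177). Hk2, the inducible hexokinase of muscle, fat and tumours, had 97.2, 204, 213 and 376 in graft BM-MSCs, 59.5, 55.9 and 156 in BM-MSCs and 767, 1071 and 157 in P-SSCs. It stood high in P-SSC 1 and P-SSC 2+5, and P-SSC 4 was level with BM-MSC 3. No Hk2 difference was called, with a log2 change of 2.64 ± 0.86 (SE) between P-SSCs and BM-MSCs (adjusted p = 0.0963). In the fit without P-SSC 4 the change was 3.48 (adjusted p = 0.02). DESeq2 also called Hk2 between these groups, and the 2 groups alone called Hk1. The term for library kind called Hk2 as well, but its change is that of the fit without P-SSC 4. Gpi1, which converts glucose 6-phosphate to fructose 6-phosphate, had 1681, 3179, 4007 and 3622 in graft BM-MSCs, 4934, 5855 and 5808 in BM-MSCs and 6019, 8614 and 4953 in P-SSCs. The graft range ended below both others. Its call against P-SSCs (log2 change -1.10 ± 0.31 (SE), adjusted p = 0.0343) was lost without BM-MSC 1, BM-MSC 2+4, BM-MSC 3, P-SSC 1 or P-SSC 2+5 (adjusted p 0.0544 to 0.141). The Gpi1 call was also lost with median centring, quantile normalization, the 2 groups alone, edgeR, GC correction (log2 change -0.11, adjusted p = 0.887) and the term for library kind (log2 change -0.74, adjusted p = 0.455).

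The isozymes of phosphofructokinase, the committed step, were divided between the tissues. Pfkl, the liver form, stood high in marrow cells and Pfkp, the platelet form, in P-SSCs, and graft BM-MSCs were nearer to BM-MSCs than to P-SSCs in the balance of these isozymes. Pfkl (ENSMUSG00000020277, chr10:77986947-78010083) had 1223, 1217, 2528 and 1496 normalized reads in graft BM-MSCs, 4032, 5389 and 3150 in BM-MSCs and 559, 698 and 393 in P-SSCs. No 2 groups overlapped. It was lower in P-SSCs than in BM-MSCs (log2 change -2.93 ± 0.37 (SE), adjusted p = 0.000554), higher in graft BM-MSCs than in P-SSCs (log2 change 1.52 ± 0.35 (SE), adjusted p = 0.0117) and lower in graft BM-MSCs than in BM-MSCs (log2 change -1.41 ± 0.35 (SE), adjusted p = 0.036). The first 2 calls held in each of the 10 fits that left out 1 library, and the last was lost without graft BM-MSC 1, graft BM-MSC 2, graft BM-MSC 4, BM-MSC 1, BM-MSC 2+4, BM-MSC 3 or P-SSC 1 (adjusted p 0.0526 to 0.158). That last Pfkl call was also lost with median centring, quantile normalization, edgeR, GC correction (log2 change -0.55, adjusted p = 0.501) and the term for library kind (log2 change -0.74, adjusted p = 0.847). Pfkp (ENSMUSG00000021196, chr13:6579768-6648777) had 2015, 366, 1025 and 337 in graft BM-MSCs, 1490, 1343 and 1690 in BM-MSCs and 7588, 6514 and 4838 in P-SSCs, where all 3 libraries were above the other 7. It was lower in graft BM-MSCs than in P-SSCs (log2 change -3.13 ± 0.56 (SE), adjusted p = 0.00309), also in each fit that left out 1 library but not with the term for library kind (log2 change -2.77, adjusted p = 0.107). In the main fit it was not called between P-SSCs and BM-MSCs (log2 change 2.05 ± 0.60 (SE), adjusted p = 0.0613). Between these groups Pfkp was called with pseudocount 5, the 2 groups alone and DESeq2, and without graft BM-MSC 1, 2 or 4, but in no other alternative. Pfkm, the muscle form, had 0, 293, 457 and 0 in graft BM-MSCs, 705, 511 and 970.5 in BM-MSCs and 1077, 1104 and 622 in P-SSCs. In graft BM-MSCs, 2 libraries were at 0 and 2 were not, all 4 lay below the BM-MSC and P-SSC ranges, and no difference was called.

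Per kb of the longest protein-coding transcript, Pfkl made up 63.8% ± 10.6 (SD, n = 3) of the phosphofructokinase level in BM-MSCs, 62.3% ± 17.5 (n = 4) in graft BM-MSCs and 7.39% ± 1.22 (n = 3) in P-SSCs. Pfkp made up 21.2% ± 4.51 in BM-MSCs, 29.1% ± 20.6 in graft BM-MSCs and 76.5% ± 2.74 in P-SSCs. The share of Pfkl was at least 40.3% in all 7 marrow libraries and at most 8.74% in all 3 P-SSC libraries. The log2 ratio of Pfkl to Pfkp is nearly unchanged by a single factor per library. It can still carry the GC difference between libraries, since the transcripts are 57.1% and 48.9% GC. The ratio was -0.72, 1.73, 1.30 and 2.15 in graft BM-MSCs, 1.44, 2.00 and 0.90 in BM-MSCs and -3.76, -3.22 and -3.62 in P-SSCs. Graft BM-MSC 1 was the one marrow library with more Pfkp than Pfkl reads. The ratio differed by 4.65 between graft BM-MSCs and P-SSCs (exact two-sided permutation test, p = 0.0571, the smallest that 4 against 3 libraries can give, adjusted p = 0.264 over 30 tests), and by -4.98 between P-SSCs and BM-MSCs (exact p = 0.1, the smallest for 3 against 3). Within the 5 libraries in which GC-rich genes stood high, the mean graft BM-MSC differed from P-SSC 4 by 1.97 in Pfkl and -2.77 in Pfkp on the log2 scale. Within the other 5, P-SSC 1 and 2+5 differed from BM-MSCs by -2.71 and 2.23.

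The 250 bases before the start sites of Pfkl and Pfkp are given because these isozymes differed in opposite directions between graft BM-MSCs and P-SSCs. Those of Ldha and Ldhb, described further on, are given because only Ldhb of this pair was called in any comparison. For Ldha, RefSeq lists a second start site, whose window (chr7:46846832-46847081, plus strand) is not printed. Sequences are from RefSeq on GRCm38.p6, 5′ to 3′ on the gene's strand, with ACGTG and GCGTG, the core letters of the hypoxia response element, in capitals on either strand (CACGT and CACGC on the other).
Pfkl (chr10:78009808-78010057, minus strand): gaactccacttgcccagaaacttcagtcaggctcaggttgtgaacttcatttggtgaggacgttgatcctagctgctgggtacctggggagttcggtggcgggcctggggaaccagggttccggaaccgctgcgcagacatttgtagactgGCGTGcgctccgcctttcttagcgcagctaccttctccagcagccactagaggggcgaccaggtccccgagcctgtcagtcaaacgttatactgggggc
Pfkp (chr13:6648772-6649021, minus strand): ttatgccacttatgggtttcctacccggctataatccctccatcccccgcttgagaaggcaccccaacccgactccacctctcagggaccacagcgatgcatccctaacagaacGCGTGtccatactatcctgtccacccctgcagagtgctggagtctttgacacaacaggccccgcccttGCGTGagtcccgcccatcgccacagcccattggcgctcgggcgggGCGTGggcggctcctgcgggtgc
Ldha (chr7:46845554-46845803, plus strand): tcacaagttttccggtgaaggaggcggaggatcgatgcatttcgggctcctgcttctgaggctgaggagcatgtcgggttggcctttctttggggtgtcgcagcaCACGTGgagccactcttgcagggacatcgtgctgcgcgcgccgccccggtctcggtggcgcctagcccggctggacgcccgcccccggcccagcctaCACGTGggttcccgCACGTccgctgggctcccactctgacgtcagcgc
Ldhb (chr6:142507958-142508207, minus strand): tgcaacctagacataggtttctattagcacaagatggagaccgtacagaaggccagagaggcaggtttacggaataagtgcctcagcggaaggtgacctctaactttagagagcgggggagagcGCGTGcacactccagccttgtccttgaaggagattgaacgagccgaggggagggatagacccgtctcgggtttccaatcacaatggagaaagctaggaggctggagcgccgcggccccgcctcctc
Pfkl held 1 match, Pfkp 3, Ldha 5 (matches on both strands of a CACGTG overlap) and Ldhb 1. The other Ldha window held 1. Of the 55 windows listed for 35 members, 76.4% held at least 1 match, as did 38.6% of all 32851 windows of this length. The GC content of the 4 windows was 59.2%, 62.8%, 67.2% and 56.4%. These are matches of letters, and binding was not measured.

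**Figure D3:**
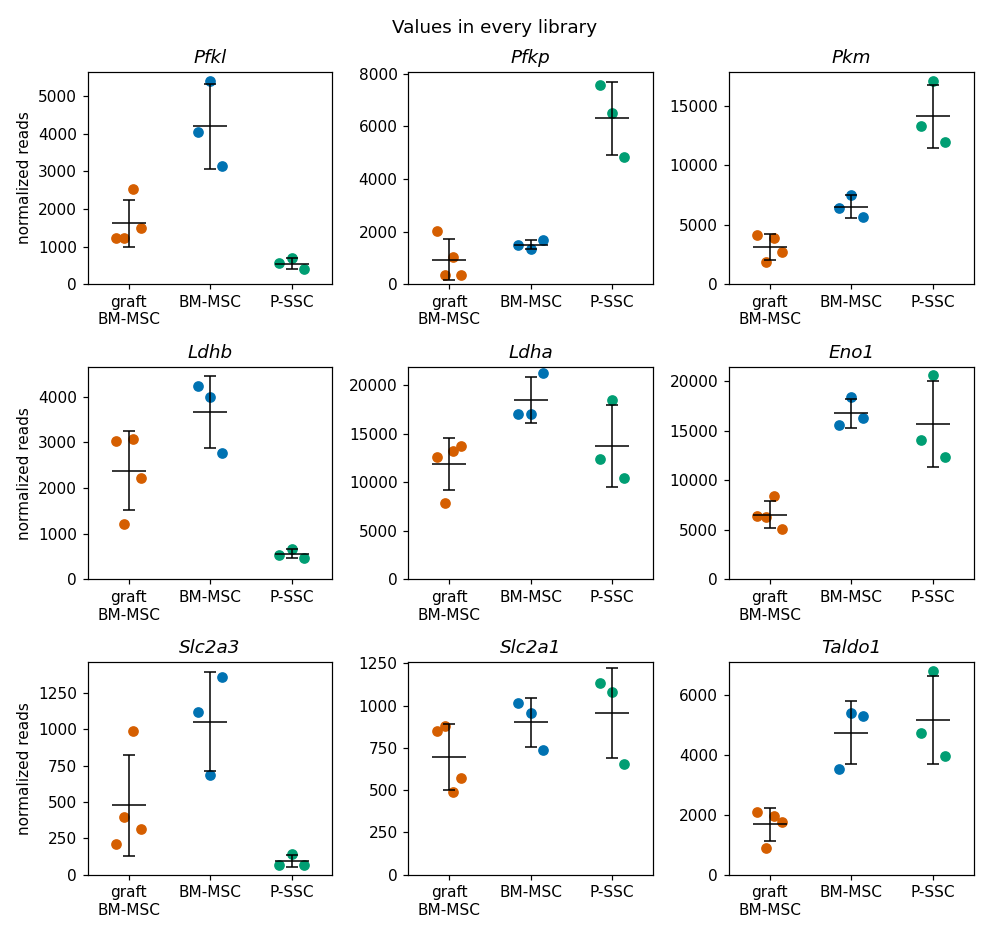
Each point is the normalized reads of 1 library on a linear axis that starts at 0 (orange, graft BM-MSC, n = 4; blue, BM-MSC, n = 3; green, P-SSC, n = 3), and bars give the mean and SD. Pfkl, Ldhb and Slc2a3 are lowest in P-SSCs, Pfkp and Pkm highest there, Eno1 and Taldo1 lowest in graft BM-MSCs, and Ldha and Slc2a1 overlap between graft BM-MSCs and P-SSCs.

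The PFKFB enzymes, which set the level of the phosphofructokinase activator fructose 2,6-bisphosphate, were low, and none was called. Pfkfb1 was at 0 in all 4 graft libraries and at 7.31 to 24.3 in BM-MSCs and 0 to 44.6 in P-SSCs. Pfkfb2 was at 0 in 3 of 4 graft libraries and reached at most 39.7 in any library. Pfkfb3, the form with the highest kinase activity, had 217, 5.90, 251 and 242 in graft BM-MSCs, 340.5, 234 and 428 in BM-MSCs and 81.0, 70.1 and 169.6 in P-SSCs. Pfkfb4 had 164, 0, 167 and 459 in graft BM-MSCs, 262, 246 and 467 in BM-MSCs and 347, 280.2 and 273 in P-SSCs. Graft BM-MSC 2, the library with the fewest genes detected, was the lowest for both, and BM-MSC 3 was the highest library for both among the steady-state libraries.

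Among the enzymes from aldolase to enolase, which split fructose 1,6-bisphosphate and carry the triose phosphates on, Tpi1, Pgk1 and Eno1 were lower in graft BM-MSCs than in both steady-state groups, and Gapdh and Pgam1 lower than in P-SSCs. These 8 calls were lost with GC correction and with the term for library kind. None of the 5 genes was called between P-SSCs and BM-MSCs. Tpi1 (triose phosphate isomerase) had 4809, 5094, 6020 and 4119 in graft BM-MSCs, 9022, 11119 and 9439 in BM-MSCs and 10327, 12619 and 7534 in P-SSCs. Pgk1 (phosphoglycerate kinase, an ATP-making step) had 671, 756, 737 and 1208 in graft BM-MSCs, 1583, 1951 and 1983 in BM-MSCs and 2099, 2430 and 1696 in P-SSCs. Eno1 (enolase) had 6411, 6250, 8386 and 5123 in graft BM-MSCs, 15563, 18380 and 16258 in BM-MSCs and 14045, 20636 and 12385 in P-SSCs. For these 3 genes, and for Gapdh and Pgam1, the graft range ended below both steady-state ranges. Eno1 (ENSMUSG00000063524, chr4:150236721-150248879) was lower in graft BM-MSCs than in BM-MSCs (log2 change -1.37 ± 0.22 (SE), adjusted p = 0.006) and than in P-SSCs (log2 change -1.25 ± 0.22 (SE), adjusted p = 0.003), in each fit that left out 1 library but not with GC correction. The table also lists Eno1b, a near-identical copy of Eno1, so that the division of reads between them is uncertain. Pgk1 was lower than in P-SSCs (log2 change -1.32 ± 0.28 (SE), adjusted p = 0.00838) and than in BM-MSCs (log2 change -1.16 ± 0.28 (SE), adjusted p = 0.0349), the latter lost without graft BM-MSC 1, graft BM-MSC 3, BM-MSC 1, BM-MSC 2+4, BM-MSC 3 or P-SSC 1 (adjusted p 0.0531 to 0.129). Tpi1 was lower than in P-SSCs (log2 change -1.001 ± 0.22 (SE), adjusted p = 0.00876) and than in BM-MSCs (log2 change -0.98 ± 0.22 (SE), adjusted p = 0.023), the latter lost without BM-MSC 1, BM-MSC 2+4 or BM-MSC 3 (adjusted p 0.0589 to 0.103). Gapdh, the dehydrogenase that makes NADH, had 11030, 14281, 13300 and 9314 in graft BM-MSCs, 16142, 22575 and 19459 in BM-MSCs and 24719, 38552 and 15007 in P-SSCs. It was called against P-SSCs alone (log2 change -1.04 ± 0.29 (SE), adjusted p = 0.0339), and the call was lost without graft BM-MSC 1, graft BM-MSC 3, graft BM-MSC 4, BM-MSC 2+4, BM-MSC 3, P-SSC 1 or P-SSC 2+5 (adjusted p 0.0501 to 0.132). Pgam1 (phosphoglycerate mutase) had 1358, 758, 1007 and 850.1 in graft BM-MSCs, 1467, 1642 and 1485 in BM-MSCs and 2148, 2699 and 1789 in P-SSCs, and was lower in graft BM-MSCs than in P-SSCs (log2 change -1.17 ± 0.28 (SE), adjusted p = 0.0145), lost without P-SSC 2+5 (adjusted p 0.059). Aldoa, the main aldolase, had 9943, 14214, 15135 and 7574 in graft BM-MSCs, 16761, 22756 and 17531 in BM-MSCs and 23012, 32749 and 14143 in P-SSCs, and was not called (adjusted p = 0.059 against P-SSCs and 0.176 against BM-MSCs). Aldoc, the brain aldolase, was at 0 in all 7 marrow libraries and had 115, 0 and 18.4 in P-SSCs, and no difference was called. With GC correction the log2 changes against P-SSCs were -0.01 for Tpi1, -0.08 for Gapdh, -0.20 for Pgam1, -0.33 for Eno1 and -0.47 for Pgk1 (adjusted p 0.449 to 0.989). Against BM-MSCs they were -0.03 for Tpi1, -0.32 for Pgk1 and -0.53 for Eno1 (adjusted p 0.449 to 0.971). The mean graft BM-MSC differed from P-SSC 4, of the same GC kind, by -0.34 in Gapdh, -0.60 in Tpi1, -0.88 in Pgam1, -0.94 in Eno1 and -1.05 in Pgk1, where the median gene differed by -0.61. Against P-SSCs, median centring and quantile normalization also ended the calls of Tpi1 and Gapdh, quantile normalization that of Pgam1, and edgeR and the 2 groups alone that of Gapdh. Against BM-MSCs, median centring and edgeR ended those of Tpi1 and Pgk1. P-SSC 2+5 was the highest library for Aldoa, Tpi1, Gapdh, Pgk1, Pgam1, Eno1 and Pkm. It also had the highest sum of muscle genes, 2089, with Acta1 at 893 and Ckm at 84.1. The part of muscle RNA in these values was not tested.

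Pkm (pyruvate kinase, the last step of glycolysis) was the glycolytic gene with the smallest adjusted p between graft BM-MSCs and P-SSCs. Pkm (ENSMUSG00000032294, chr9:59656368-59679375) had 4164, 1854, 3902 and 2698 normalized reads in graft BM-MSCs, 6442, 7500 and 5640 in BM-MSCs and 13331, 17077 and 11944 in P-SSCs. The 3 groups did not overlap, with graft BM-MSCs lowest and P-SSCs highest. It was lower in graft BM-MSCs than in P-SSCs (log2 change -2.22 ± 0.29 (SE), adjusted p = 0.000435), in all 22 alternative settings, GC correction among them (-1.31, adjusted p = 0.0218). P-SSC 4, which shares the GC property of the graft libraries, had 11944, a log2 difference of -1.99 for the mean graft BM-MSC. It was also lower in graft BM-MSCs than in BM-MSCs (log2 change -1.11 ± 0.29 (SE), adjusted p = 0.0431), lost without graft BM-MSC 2, graft BM-MSC 4, BM-MSC 1, BM-MSC 2+4, BM-MSC 3, P-SSC 1 or P-SSC 2+5 (adjusted p 0.0511 to 0.166) and with quantile normalization, the 2 groups alone, edgeR, GC correction (log2 change -0.29, adjusted p = 0.662) and the term for library kind (log2 change -0.77, adjusted p = 0.817). It was higher in P-SSCs than in BM-MSCs (log2 change 1.11 ± 0.31 (SE), adjusted p = 0.0498), lost without graft BM-MSC 3, graft BM-MSC 4, BM-MSC 1, BM-MSC 2+4, BM-MSC 3, P-SSC 1, P-SSC 2+5 or P-SSC 4 (adjusted p 0.0526 to 0.177) and with pseudocount 0.1, no filter on low values, median centring, quantile normalization, edgeR, GC correction (log2 change 1.02, adjusted p = 0.14) and the term for library kind (log2 change 1.22, adjusted p = 0.0698). Reads were counted per gene, and the M1 and M2 forms of pyruvate kinase were not told apart.

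At the lactate branch, Ldhb, the heart form of lactate dehydrogenase, separated marrow cells from P-SSCs, whereas Ldha, the muscle form, was not called in any comparison. Ldhb (ENSMUSG00000030246, chr6:142490249-142507957) had 3023, 1211, 3072 and 2228 in graft BM-MSCs, 4242, 3990 and 2772 in BM-MSCs and 540.1, 670.0 and 478 in P-SSCs. All 7 marrow libraries were above all 3 P-SSC libraries, and the 2 marrow groups overlapped. Ldhb was higher in graft BM-MSCs than in P-SSCs (log2 change 2.00 ± 0.35 (SE), adjusted p = 0.00279) and lower in P-SSCs than in BM-MSCs (log2 change -2.69 ± 0.38 (SE), adjusted p = 0.000933), the former in all 22 alternative settings and both in each fit that left out 1 library. Between graft BM-MSCs and BM-MSCs the log2 change was -0.69, with a 95% interval of -1.47 to 0.09 (adjusted p = 0.25). Ldha had 12653, 7920, 13265 and 13712 in graft BM-MSCs, 17074, 17096 and 21221 in BM-MSCs and 12366, 18526 and 10450 in P-SSCs. The ranges of Ldha overlapped between P-SSCs and both marrow groups, but every graft library was below every BM-MSC library. As a share of both genes per kb of the longest coding transcript, Ldhb was at 21.3% ± 3.88 (SD, n = 4) for graft BM-MSCs, 21.9% ± 5.64 (n = 3) for BM-MSCs and 5.50% ± 0.628 (n = 3) for P-SSCs. The log2 ratio of Ldha to Ldhb was 2.06, 2.71, 2.11 and 2.62 in graft BM-MSCs, 2.01, 2.10 and 2.94 in BM-MSCs and 4.51, 4.79 and 4.45 in P-SSCs. Neither marrow group overlapped with P-SSCs, and the exact two-sided permutation p was 0.0571 for graft BM-MSCs against P-SSCs, the smallest possible, and 1 for graft BM-MSCs against BM-MSCs. The lactate transporter Slc16a1 (MCT1) had 303, 665, 255 and 616 in graft BM-MSCs, 261, 195 and 731 in BM-MSCs and 552, 461 and 978 in P-SSCs. Slc16a3 (MCT4), the exporter of highly glycolytic cells, had 0, 0, 67.5 and 94.9 in graft BM-MSCs, 76.2, 50.6 and 319 in BM-MSCs and 247, 284 and 132 in P-SSCs. Slc16a3 was lower in every graft library than in every P-SSC library, with 2 graft libraries at 0, and did not pass the test (adjusted p = 0.109).

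At the pyruvate dehydrogenase step, 2 members differed between graft BM-MSCs and P-SSCs and none between the other groups. Pdha1, the catalytic E1 alpha subunit, was lower in graft BM-MSCs (log2 change -1.37 ± 0.37 (SE), adjusted p = 0.0271), with 675, 754, 1459 and 618 in graft BM-MSCs, 2220, 1112 and 1695 in BM-MSCs and 2653, 1772 and 2068 in P-SSCs. Graft BM-MSC 3 lay within the BM-MSC range and all 4 graft libraries below the P-SSC range. The call was lost without graft BM-MSC 1, graft BM-MSC 4 or P-SSC 1 (adjusted p 0.0578 to 0.118). The Pdha1 call was also lost with quantile normalization, the 2 groups alone, edgeR, GC correction (log2 change -0.74, adjusted p = 0.313) and the term for library kind (log2 change -1.33, adjusted p = 0.232). Pdk3, a kinase that inactivates the complex, was higher in graft BM-MSCs (log2 change 2.68 ± 0.81 (SE), adjusted p = 0.0452), with 783, 1479, 1400 and 166 in graft BM-MSCs, 1195, 679 and 788 in BM-MSCs and 60.2, 76.4 and 300.5 in P-SSCs. P-SSC 4 lay above graft BM-MSC 4, so that the groups overlapped, and the call was lost without graft BM-MSC 1, graft BM-MSC 2, graft BM-MSC 3, BM-MSC 1, BM-MSC 2+4, BM-MSC 3, P-SSC 1 or P-SSC 2+5 (adjusted p 0.0697 to 0.176). The Pdk3 call was also lost with pseudocount 0.1, the 2 groups alone, edgeR and the term for library kind (log2 change 1.26, adjusted p = 0.627). Pdk2 had 1601, 1720, 1403 and 1079 in graft BM-MSCs, 1295, 1929 and 1458 in BM-MSCs and 832, 856 and 892 in P-SSCs, with all 3 P-SSC libraries below the other 7, and was not called (adjusted p = 0.0852 for graft BM-MSCs against P-SSCs and 0.112 for P-SSCs against BM-MSCs). Pdk2 was called against graft BM-MSCs with DESeq2, GC correction and without graft BM-MSC 4. Both Pdk2 and Pdk3 were called lower in P-SSCs than in BM-MSCs with the 2 groups alone and with DESeq2. Pdk3 was also called there with quantile normalization, the term for library kind, and without graft BM-MSC 4 or P-SSC 4. The change with the term is that of the fit without P-SSC 4. Pdk4, the kinase induced in fasting, had 667, 2135, 910.4 and 647 in graft BM-MSCs, 882, 728 and 805 in BM-MSCs and 1152, 335 and 229.7 in P-SSCs. Pdk1, a target of the hypoxia-inducible factor, had 145, 0, 32.2 and 350.4 in graft BM-MSCs, 16.7, 3.16 and 33.5 in BM-MSCs and 1.04, 53.5 and 25.2 in P-SSCs. For both genes a single library of a group stood far from the rest, graft BM-MSC 2 and P-SSC 1 for Pdk4 and graft BM-MSC 4 for Pdk1. The other subunits, Pdhb (E1 beta, 870.1 to 2075 over all 10 libraries) and Dlat (E2, 86.6 to 845), were not called.

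In the pentose phosphate pathway, the 2 enzymes of the non-oxidative branch were lower in graft BM-MSCs than in both steady-state groups, and all 4 of these calls were lost with GC correction and with the term for library kind. The dehydrogenases of the oxidative branch were not called. Taldo1 (transaldolase) had 2113, 886, 1976 and 1751 in graft BM-MSCs, 3548, 5406 and 5320 in BM-MSCs and 4741, 6819 and 3979 in P-SSCs, and Tkt (transketolase) had 1307, 1436, 2082 and 2260 in graft BM-MSCs, 3078, 4111 and 5489 in BM-MSCs and 5899, 6341 and 3038 in P-SSCs. The graft range ended below the lowest steady-state value for both genes. Taldo1 was lower than in P-SSCs (log2 change -1.66 ± 0.34 (SE), adjusted p = 0.00655) and than in BM-MSCs (log2 change -1.55 ± 0.34 (SE), adjusted p = 0.0228), the latter lost without BM-MSC 2+4 or BM-MSC 3 (adjusted p 0.0958 to 0.0996). Tkt was lower than in P-SSCs (log2 change -1.49 ± 0.33 (SE), adjusted p = 0.0109), lost without P-SSC 1 or P-SSC 2+5 (adjusted p 0.0532 to 0.0587), and than in BM-MSCs (log2 change -1.25 ± 0.33 (SE), adjusted p = 0.0476), lost without graft BM-MSC 1, graft BM-MSC 2, graft BM-MSC 3, BM-MSC 1, BM-MSC 2+4, BM-MSC 3, P-SSC 1 or P-SSC 2+5 (adjusted p 0.0529 to 0.192). With GC correction the log2 changes were -0.67 and -0.60 for Taldo1, against P-SSCs and BM-MSCs, and -0.50 and -0.31 for Tkt (adjusted p 0.226 to 0.702). The Tkt call against BM-MSCs was also lost with pseudocount 0.1, no filter on low values, median centring, quantile normalization and edgeR. G6pdx, the entry dehydrogenase, ranged over 3365 to 5337, 5186 to 5822 and 3440 to 4472 in the 3 groups and Pgd over 2676 to 6144, 4491 to 5131 and 3549 to 5809. Pgls (6-phosphogluconolactonase) had 1621, 1510, 2232 and 1655 in graft BM-MSCs, 165, 234 and 206 in BM-MSCs and 149.6, 127 and 1783 in P-SSCs, and was the one member higher in graft BM-MSCs than in BM-MSCs (log2 change 3.11 ± 0.78 (SE), adjusted p = 0.0391). Its exons are 65.9% GC, the highest of the members, and P-SSC 4 stood with the graft libraries, at a log2 difference of -0.04. The call was lost without graft BM-MSC 1, graft BM-MSC 2, graft BM-MSC 3, graft BM-MSC 4, BM-MSC 1, BM-MSC 2+4 or BM-MSC 3 (adjusted p 0.0583 to 0.127). It was also lost with edgeR, with DESeq2 and with GC correction (1.47, adjusted p = 0.0552). The direction turned when the 2 kinds of library were a term of the fit (-0.57, adjusted p = 0.866).

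**Figure D4:**
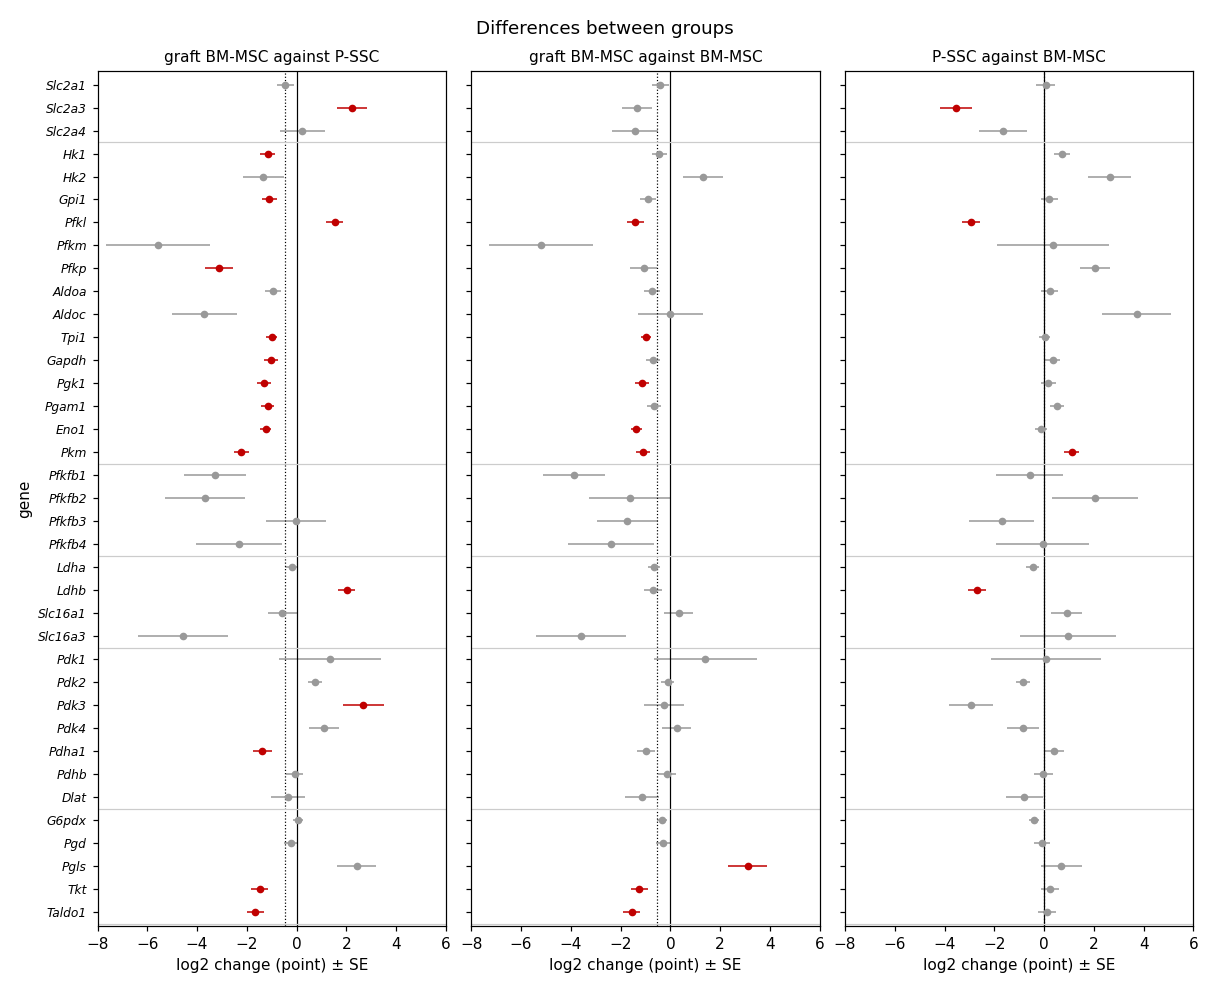
Each point is the log2 change of a member with its standard error in 1 of the 3 comparisons, the first group minus the second, from log2(value + 1) with limma. Red points passed an adjusted p of 0.05 and grey points did not, and the dotted line is the median of all genes tested. Most glycolytic enzymes lie left of 0 in the first 2 panels, and Slc2a3, Pfkl and Ldhb lie to the right in the first and to the left in the last.

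How many members fell in graft BM-MSCs depended on how the libraries were scaled. With values as deposited, the median member was at -1.001 against P-SSCs and -0.89 against BM-MSCs on the log2 scale, where the median of all genes tested was at -0.47 and -0.53. Between P-SSCs and BM-MSCs the medians were 0.06 and 0.00. Against P-SSCs, the 4 higher and 12 lower members became 5 and 9 with median centring, 5 and 6 with quantile normalization, and 7 and 2 with GC correction, where the median of all genes moved to 0.29 and that of the members to -0.06. The 2 that remained lower with GC correction were Pfkp and Pkm, and the 7 higher were Slc2a3, Pfkl, Ldhb, Pdk2, Pdk3, G6pdx and Pgls. Of all genes tested, 830 higher and 1634 lower became 797 and 1555, 1247 and 1241, and 1570 and 989 in these settings. Against BM-MSCs, the 1 higher and 7 lower members became 1 and 3 with median centring and 1 and 4 with quantile normalization. All genes went from 356 higher and 690 lower to 355 and 639, and to 588 and 435. With GC correction limma called 0 members, with 3 at an unadjusted p under 0.05, where 882 of all genes were higher and 357 lower. Without GC correction, edgeR called 2 members on the recovered reads, Eno1 and Taldo1, and DESeq2 called 7. These methods called 2.32% and 15.3% of the genes with an adjusted p. Relative to the median of all genes, the 6 members lower than in both steady-state groups (Tpi1, Pgk1, Eno1, Pkm, Tkt and Taldo1) were at -1.74 to -0.53 against P-SSCs and at -1.02 to -0.46 against BM-MSCs. Within the 5 libraries in which GC-rich genes stood high, the median member differed by -0.74 and the median gene by -0.61 between the mean graft BM-MSC and P-SSC 4, and 23 of 37 members were lower in graft BM-MSCs. Within the other 5, the medians were 0.27 and -0.03 between P-SSC 1 and 2+5 and the BM-MSCs. With a term for the 2 kinds of library, graft BM-MSCs against P-SSCs was the same comparison with P-SSC 4. The members called there were Pfkl (1.97), Ldhb (2.22) and Pkm (-1.99). Leaving out P-SSC 1 lowered the count against P-SSCs from 16 to 10. Against BM-MSCs, the count of 8 went to 4 without graft BM-MSC 1 or 2, 5 without graft BM-MSC 4 or P-SSC 1, 2 without BM-MSC 1, and 1 without BM-MSC 2+4 or BM-MSC 3.

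**Figure D5:**
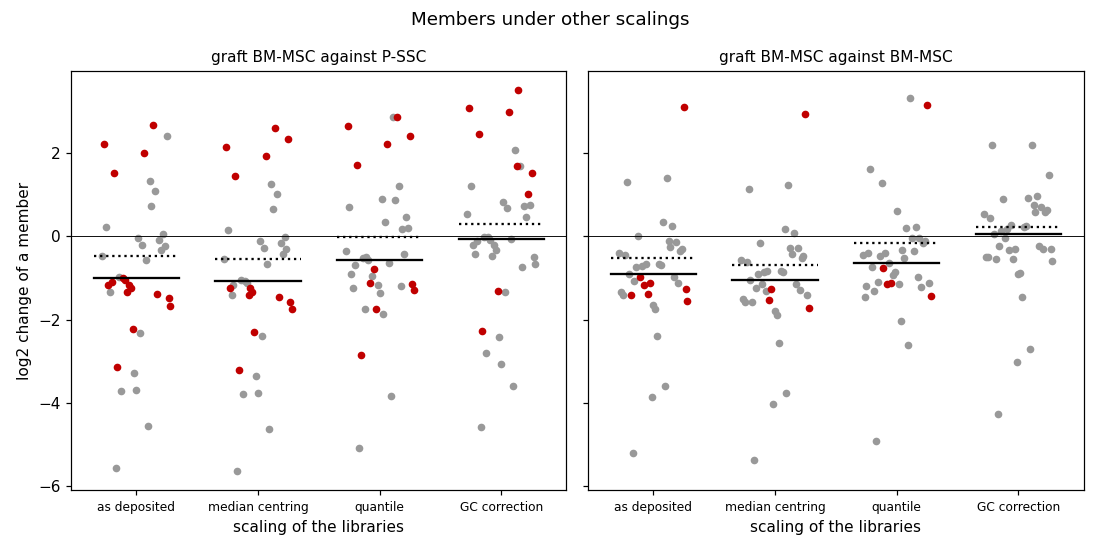
Each point is the log2 change of 1 of the 37 members under 4 scalings of the libraries, for graft BM-MSCs against P-SSCs (left) and against BM-MSCs (right). Red points passed an adjusted p of 0.05, the solid bar is the median of the members and the dotted bar that of all genes tested. With GC correction the solid bars move to -0.06 and 0.06 and the dotted bars to 0.29 and 0.23, and no member passes in the right panel.

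Ratios of 2 isozymes within a library were compared for 10 pairs of genes in the 3 comparisons, 30 tests in all. The groups did not overlap in 10 of the 30, and no test passed after adjustment, the smallest adjusted p being 0.264. The exact permutation test could not go below p = 0.0571 for 4 against 3 libraries and 0.1 for 3 against 3. Beside Pfkl to Pfkp and Ldha to Ldhb, the ratios of Slc2a1 to Slc2a3 and of Pfkm to Pfkl kept P-SSCs apart from both marrow groups. The log2 ratio of Slc2a1 to Slc2a3 was 2.01, 1.15, -1.01 and 0.85 in graft BM-MSCs, -0.14, 0.48 and -0.88 in BM-MSCs and 4.09, 2.96 and 3.23 in P-SSCs. Hk1 to Hk2 was 3.83, 2.11, 3.20 and 1.24 in graft BM-MSCs, 4.70, 4.84 and 3.46 in BM-MSCs and 1.81, 1.37 and 4.11 in P-SSCs, with overlap in every comparison. The ratios of Slc16a1 to Slc16a3, Pdk1 to Pdk4 and Pdk2 to Pdk4 overlapped in every comparison as well. Pfkfb3 to Pfkfb4 was apart in P-SSCs against BM-MSCs, and Aldoa to Aldoc in graft BM-MSCs against BM-MSCs, where Aldoc was at 0 throughout and the ratio restates Aldoa.

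Other genes of these pathways were read from 6 further lists. Their calls are from the main fit alone. How far these calls hold with GC correction, the term for library kind or a library left out is not given here. They are thus not to be read as firmer than the calls of members. Of 19 tested regulators, graft BM-MSCs had 5 at a higher and 3 at a lower level than P-SSCs, and 3 at a higher and 1 at a lower level than BM-MSCs. P-SSCs had 3 at a higher and 2 at a lower level than BM-MSCs. These are 42.1%, 21.1% and 26.3% of the list, against 18.1%, 7.67% and 9.15% of all genes. Epas1, which encodes the hypoxia-inducible factor HIF-2 alpha, had 3755, 2798, 2686 and 2149 in graft BM-MSCs, 4888, 4342 and 5104 in BM-MSCs and 280.4, 232 and 189 in P-SSCs, and was lower in P-SSCs than in BM-MSCs (log2 change -4.36 ± 0.28 (SE), adjusted p = 1.01e-05) and higher in graft BM-MSCs than in P-SSCs (log2 change 3.59 ± 0.26 (SE), adjusted p = 2.04e-05). Arrdc4, a glucose-responsive arrestin that lowers glucose uptake, had 6234, 7358, 5084 and 4294 in graft BM-MSCs, 4207, 1982 and 2650 in BM-MSCs and 147, 229 and 959.6 in P-SSCs, and was higher in graft BM-MSCs than in P-SSCs (log2 change 4.13 ± 0.56 (SE), adjusted p = 0.000561) and lower in P-SSCs than in BM-MSCs (log2 change -3.13 ± 0.60 (SE), adjusted p = 0.0066). The kinase gene Akt1 had 2562, 3501, 3244 and 3904 in graft BM-MSCs, 319.6, 332 and 369 in BM-MSCs and 349, 531 and 1061 in P-SSCs, and was higher in graft BM-MSCs than in both other groups (log2 change 2.49, adjusted p = 0.00111, and 3.26, adjusted p = 0.00182). P-SSC 4 was the highest steady-state library for Akt1, whose exons are 59.7% GC. It was also the highest P-SSC library for Arrdc4, but the lowest for Epas1.

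Of 13 tested genes of glycogen and gluconeogenesis, 3 were lower in graft BM-MSCs than in P-SSCs, 1 was lower than in BM-MSCs, and 2 were higher in P-SSCs than in BM-MSCs. These are 23.1%, 7.69% and 15.4% of the list, against 18.1%, 7.67% and 9.15% of all genes. Pygl, the liver glycogen phosphorylase that frees glucose from glycogen, had 301, 426, 286 and 118 in graft BM-MSCs, 570.2, 633 and 470.5 in BM-MSCs and 4928, 4711 and 3715 in P-SSCs, a log2 change of -4.10 between graft BM-MSCs and P-SSCs (adjusted p = 0.000126). Pygb, the brain form, had 327, 577, 997 and 369 in graft BM-MSCs, 1750, 2187 and 1520 in BM-MSCs and 4831, 4309 and 3482 in P-SSCs, and Ugp2, which makes UDP-glucose for glycogen, 1433, 1112, 866 and 933 in graft BM-MSCs, 654, 607 and 665 in BM-MSCs and 2552, 3025 and 4190 in P-SSCs. All 3 P-SSC libraries were above all 7 marrow libraries for each of the 3 genes, by limma with adjusted p = 0.000382 for Pygb and 0.00301 for Ugp2 against graft BM-MSCs.

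Of 11 tested further transporters and their partners, graft BM-MSCs had 2 at a higher and 1 at a lower level than P-SSCs (27.3%, against 18.1% of all genes), and P-SSCs had 2 at a lower level than BM-MSCs (18.2%, against 9.15%). Bsg (basigin), which carries MCT1 and MCT4 to the membrane, had 18581, 23844, 26363 and 17001 in graft BM-MSCs, 20406, 20358 and 19442 in BM-MSCs and 7686, 10150 and 11789 in P-SSCs, and Emb (embigin), a related chaperone, had 4804, 2681, 3122 and 7045 in graft BM-MSCs, 2937, 2188 and 2202 in BM-MSCs and 972, 451 and 611 in P-SSCs. Both were lower in P-SSCs than in either marrow group, with adjusted p = 0.00336 and 0.000751 against graft BM-MSCs and 0.0107 and 0.0123 against BM-MSCs. Slc16a4 was at 0 in all 4 graft libraries and reached 43.3 at most. Of 10 tested further glycolytic genes, 2 were lower in P-SSCs than in BM-MSCs (20%, against 9.15% of all genes) and 1 lower in graft BM-MSCs than in BM-MSCs (10%, against 7.67%). Pklr, the pyruvate kinase of liver and red cells, had 40.7, 32.7 and 267 in BM-MSCs and was at 0 in the other 7 libraries. Hk3, the hexokinase of white blood cells, had 36.7, 0, 198 and 0 in graft BM-MSCs and 430.3, 195 and 208 in BM-MSCs, and was at 0 in P-SSCs. BM-MSC 3 held the highest Pklr value and the highest sum of red cell genes, 213622, and the part of red cells in Pklr was not tested. Among the BM-MSC libraries, Hk3 was highest in BM-MSC 1, which had their lowest neutrophil sum, 28950. Among the graft libraries, it was highest in graft BM-MSC 3, which had their highest neutrophil sum, 106513. The part of white blood cells in Hk3 was not tested. Of 8 tested further pentose phosphate genes, graft BM-MSCs had 2 at a higher and 1 at a lower level than P-SSCs (37.5%, against 18.1%). Shpk (sedoheptulokinase) was at 0 in all 4 graft libraries and had 263, 308 and 113 in BM-MSCs and 1032, 1183 and 297 in P-SSCs, called lower in graft BM-MSCs against both (adjusted p = 0.000168 and 0.00264). H6pd, the dehydrogenase of the endoplasmic reticulum, had 1963, 2854, 5936 and 2018 in graft BM-MSCs, 1619, 1605 and 3311 in BM-MSCs and 639, 767 and 1064 in P-SSCs, and Tktl1 had 0, 206, 101 and 124 in graft BM-MSCs and was at 0 at steady state. Of 13 tested further pyruvate genes, 1 was called (7.69%, against 18.1%). Mpc2, a subunit of the mitochondrial pyruvate carrier, had 2563, 2165, 2740 and 2772 in graft BM-MSCs, 1920, 1881 and 1938 in BM-MSCs and 1074, 1591 and 1599 in P-SSCs, higher in graft BM-MSCs than in P-SSCs (adjusted p = 0.0251).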

How the data were processed

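The deposited table holds, per gene and library, a read count that the authors scaled by 1 size factor per library (unit: signal, normalized reads). Per the submitters' processing notes, the authors used cutadapt 1.15, STAR 2.5, featureCounts from Subread 1.4.6 and DESeq2 1.26.0 with the build GRCm39, whereas the study's methods name GRCm38 and DESeq2. Libraries were made from RNA selected by poly-T beads. Whether they were stranded is not given in the sources used here, since the labels name directional and non-directional chemistry side by side. Where a gene's exons overlap those of another, as for 15 of the 37 members, or where near-identical copies exist, reads may be shared and values are uncertain.

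Dividing each column by its smallest positive value gave whole reads for 100% of values (tolerance 0.02 reads), and these reads gave the depths. Differences were tested on log2(value + 1) with limma 3.58.1 in R 4.3.3 (1 mean per group over all 10 libraries, empirical Bayes with trend, two-sided, Benjamini-Hochberg over all genes, threshold 0.05). Fold changes on this scale understate those of low genes. Counting floors cover counting error only, since no molecular identifiers are named. Per the methods, each replicate came from different mice. Isozyme ratios were tested with exact permutation tests in scipy 1.17.1. Alternatives were other pseudocounts and filters, median centring, quantile normalization, GC correction, a term for library kind, the 2 groups alone, edgeR 4.0.16 and DESeq2 1.42.0 on recovered reads, a replicate block, and leaving out each library. On the recovered reads, edgeR called 1531 genes between graft BM-MSCs and P-SSCs, 316 between graft BM-MSCs and BM-MSCs and 619 between P-SSCs and BM-MSCs.

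The members and the further lists were chosen with earlier results of these data known. Values of all libraries are given for members called at least once and for isozyme pairs, and up to 3 called genes with the smallest adjusted p for each further list. Coordinates, GC content and transcript lengths came from GENCODE M21 on GRCm38, and promoters from RefSeq, which listed 35 of 37 members (not Slc2a3 or Slc2a4).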

Additional observations from a re-analysis of the deposited data

Results flagged for a closer look

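In the 4 graft libraries, a single library stood apart (Dixon's test, 95% level) for 4 of the 37 members. The nominal rate of about 1 in 20 groups holds for normally distributed values. The share of all genes that would be flagged was not computed, so that the 4 are not to be read as an excess. Pgk1 was at 1208 normalized reads in graft BM-MSC 4, above 671 to 756 in the other 3. Pdha1 was at 1459 in graft BM-MSC 3, above 618 to 754. Pfkfb3 was at 5.90 in graft BM-MSC 2, below 217 to 251. Pfkfb2 was at 35.03 in graft BM-MSC 1 and at 0 in the other 3, where any value above 0 would stand apart, so that it is not to be read against the nominal rate.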

How the results depend on the processing

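Members called numbered 16 (graft BM-MSCs and P-SSCs), 8 (graft BM-MSCs and BM-MSCs) and 4 (the 2 steady-state groups), and counts follow in this order. Percentages in brackets are the share of all genes with an adjusted p that the same fit called. With the 2 groups compared alone, members called were 10, 8 and 8 (12.4%, 10.9% and 13.6%), and with DESeq2 18, 7 and 8 (22.8%, 15.3% and 11.9%). GC correction gave 9, 0 and 3 (18.8%, 9.08% and 8.57%). A term for the 2 kinds of library gave 3, 0 and 5 (7.92%, 0.293% and 8.83%). Against BM-MSCs, median centring gave 4 (7.29%), quantile normalization 5 (7.50%) and edgeR 2 (2.32%). For the counts of 0 by limma, 3 members had an unadjusted p under 0.05 with GC correction and 3 with the library term. Leaving out 1 library gave 10 to 17, 1 to 8 and 3 to 5. Other pseudocounts and filters kept each count within 1.5 times. With the term for library kind, Pgls turned to -0.57 between graft BM-MSCs and BM-MSCs. This value joins -0.04 for graft BM-MSCs minus P-SSC 4 and -0.53 for P-SSC 1 and 2+5 minus BM-MSCs. Why P-SSC 4 stood with the graft libraries was not tested. No other called member changed sign under any of these alternatives. The 10 isozyme comparisons without overlap stayed at 10 with other pseudocounts and were 10 to 14 without 1 library.

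The replicate block gave 2, 0 and 0 members, with 7 at an unadjusted p under 0.05 in each of the last 2 comparisons. It called 1.97%, 0.022% and 0.396% of all genes. Libraries of the same number did not deviate together (correlations over genes of -0.0191 to 0.0295), and the main fit did not pair them. This check rests on few pairs of single libraries. It cannot settle whether same-numbered libraries of different groups share mice, which the sources do not state.

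Values near 0 rest on few reads, and 3 reads were worth 1.69 to 3.82 normalized reads.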
